A study of Mus musculus with 2 samples.

Results

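Replacement histone variants are histones whose genes are transcribed outside the replication phase of the cell cycle, and the 8 genes described here, chosen by name, are H2afz, H2afx, H2afv, H2afy, H2afy2, H3f3a, H3f3b and H1f0. In the order given their identifiers are ENSMUSG00000037894.9, ENSMUSG00000049932.3, ENSMUSG00000041126.12, ENSMUSG00000015937.10, ENSMUSG00000020086.6, ENSMUSG00000060743.8, ENSMUSG00000016559.10 and ENSMUSG00000096210.1. They are 8 of 42462 named genes in the deposited tables and 8 of 21474 protein-coding ones. RNA longer than 200 bases was sequenced from pooled hindbrain, the part of the brain that forms the medulla, pons and cerebellum, of healthy B6NCrl mouse embryos at day 16.5 of development, male and female together. There were 2 biological replicates of this single group, replicate 2 from 37 embryos, and the libraries held 42467811 (replicate 1) and 42017008 (replicate 2) expected counts. A single group gives no comparison of conditions, and since permuting 2 libraries cannot go below a p of 0.5, no p is given. In bulk tissue, fewer cells of a type and less RNA per cell cannot be told apart.

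Canonical histones are made in bulk during DNA replication from clustered genes whose messages end in a stem-loop in place of a poly(A) tail. Replacement variants come from separate genes, mostly spliced and polyadenylated, and take the place of canonical histones in chromatin when cells are not replicating, which in the brain includes neurons that have left the cell cycle. H3f3a and H3f3b encode the same protein, H3.3, which the HIRA complex places at active genes and the ATRX and DAXX pair places in heterochromatin. H2afz and H2afv encode the H2A.Z forms found at promoters, H2afx encodes H2A.X, which is phosphorylated at DNA breaks, H2afy and H2afy2 encode the macroH2A proteins, which carry a large macrodomain, and H1f0 encodes H1.0, a linker histone that accumulates in cells that stop dividing.

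The pair H3f3a and H3f3b, and the pair H2afz and H2afv, encode the same or nearly the same protein with different codons. The start of each coding sequence is shown because it carries this difference. These are coding bases 1 to 120 from GENCODE M21 transcripts on GRCm38, with capitals at the bases that differ between the members of a pair. H3f3a lies on chromosome 1 (180800832 to 180813943, minus strand), H3f3b on chromosome 11 (116021912 to 116027962, minus strand), H2afz on chromosome 3 (137864487 to 137866922, plus strand) and H2afv on chromosome 11 (6427229 to 6444443, minus strand).
H3f3a: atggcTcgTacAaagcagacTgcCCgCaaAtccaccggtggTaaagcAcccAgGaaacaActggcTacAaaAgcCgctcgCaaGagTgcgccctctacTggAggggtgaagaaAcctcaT
H3f3b: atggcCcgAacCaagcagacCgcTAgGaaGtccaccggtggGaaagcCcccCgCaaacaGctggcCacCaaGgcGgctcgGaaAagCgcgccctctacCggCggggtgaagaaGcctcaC
H2afz: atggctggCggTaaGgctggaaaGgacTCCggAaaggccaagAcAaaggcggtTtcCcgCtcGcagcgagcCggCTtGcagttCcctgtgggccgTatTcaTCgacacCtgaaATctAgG
H2afv: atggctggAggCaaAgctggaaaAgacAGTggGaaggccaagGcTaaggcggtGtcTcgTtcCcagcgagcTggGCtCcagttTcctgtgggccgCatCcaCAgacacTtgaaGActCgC
Over the whole coding sequence of 411 bases with the stop codon, H3f3a and H3f3b differed at 95 bases, and all 83 codons that differed were synonymous. The longest run of identical bases was 23. H2afz and H2afv differed at 81 of 387 bases, in 74 codons, of which 71 were synonymous and 3 changed the encoded residue, and their longest identical run was 14 bases.

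H2afy (chromosome 13, 56073619 to 56136361) makes more than one protein from 2 alternative coding exons on chromosome 13 (minus strand), shown because the isoform result below rests on them. The longer exon, of 100 bases at chr13:56089758-56089857, belongs to macroH2A1.2, and the shorter, of 91 bases at chr13:56088252-56088342, to macroH2A1.1. As background, the macrodomain of macroH2A1.1 binds ADP-ribose and that of macroH2A1.2 does not. The alternative exon is in capitals, and 10 bases of the shared exon on each side are in lower case.
macroH2A1.2: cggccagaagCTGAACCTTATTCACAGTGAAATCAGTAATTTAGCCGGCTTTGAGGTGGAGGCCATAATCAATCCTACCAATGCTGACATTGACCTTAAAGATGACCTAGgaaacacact
macroH2A1.1: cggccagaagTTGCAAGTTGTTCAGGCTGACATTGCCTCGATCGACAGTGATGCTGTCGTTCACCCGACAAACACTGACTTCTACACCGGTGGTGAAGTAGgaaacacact
Aligned end to end, 48 of 100 positions were identical. The coding sequences were otherwise the same, with 372 codons for macroH2A1.2 and 369 for macroH2A1.1.

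All 8 genes were expressed in both pools. Each reached 1 TPM (the deposited level, corrected for transcript length and library depth) in both replicates, as did 63.5% of protein-coding genes. Their levels lay between percentiles 92.3 and 99.9 of protein-coding genes. Their median was 207 TPM, against a median of 19.5 TPM over the 13630 protein-coding genes detected. From the highest to the lowest the means spanned 18.3-fold. The lowest count of any of the 8 was 3870 in replicate 1 and 2960 in replicate 2.

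The H3.3 genes were the highest. H3f3a averaged 1917 ± 121 TPM (SD, n = 2), from 2002 TPM in replicate 1 and 1831 in replicate 2, and ranked 28 among protein-coding genes. H3f3b averaged 1326 ± 6.95 TPM, from 1321 TPM in replicate 1 and 1331 in replicate 2, and ranked 45. The values of the H3.3 genes did not overlap. The next genes by level around H3f3a were the radial glial gene Fabp7 at 2120 ± 394 TPM above and the adult beta-globin gene Hbb-bt at 1909 ± 317 below, and around H3f3b the selenoprotein gene Selenow at 1345 ± 75.1 and the actin regulator gene Marcksl1 at 1308 ± 14.9. The values of Fabp7, Hbb-bt and Selenow overlapped those of the H3.3 gene beside them. Those of Marcksl1, 1297 TPM in replicate 1 and 1318 in replicate 2, lay just below both values of H3f3b.

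The H2A variants followed at lower levels. H2afz averaged 578 ± 2.74 TPM, from 580 TPM in replicate 1 and 576 in replicate 2. H2afy had 217 and 200 TPM (208 ± 12.1), H2afy2 (chromosome 10, 61738665 to 61784147, minus strand) had 212 and 198 (205.1 ± 9.56), and H2afv had 199 and 185 (192 ± 9.81). H2afy2 overlapped both others between pools, while the higher value of H2afv, 199.2 TPM, lay just under the lower value of H2afy, 199.6 TPM. The linker histone gene H1f0 had 155 TPM in replicate 1 and 150 in replicate 2 (153 ± 3.87). H2afx was the lowest, with 120 TPM in replicate 1 and 89.5 in replicate 2 (105 ± 21.5).

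**Figure D1:**
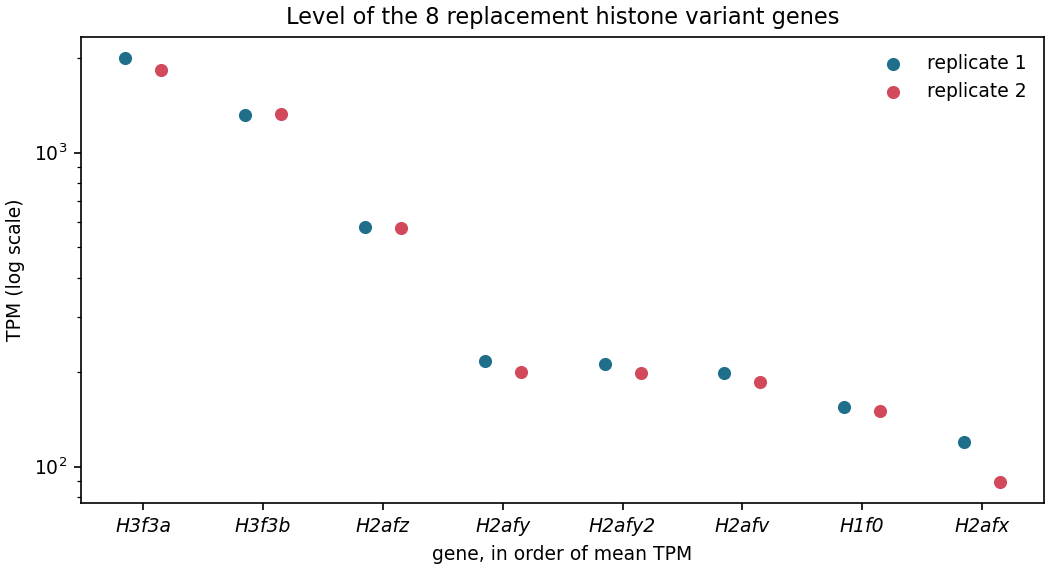
TPM of the 8 genes on a log axis, ordered by mean, with 1 point for each replicate. H3f3a and H3f3b stand highest at 1917 and 1326 TPM, H2afy, H2afy2 and H2afv lie together near 200, and H2afx shows the widest ratio between replicates, 120 against 89.5 TPM.

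The order of the 8 levels was the same in both replicates for all 7 neighbouring pairs. For 5 of the 7 the intervals that the authors deposited with each TPM did not overlap in either library. The exceptions were H2afy with H2afy2 and H2afy2 with H2afv, whose order is therefore not resolved. The deposited intervals lie around a posterior mean that runs slightly below TPM, so the TPM of 4 of the 8 genes, H3f3a, H3f3b, H2afy2 and H1f0, lay above its own interval in both replicates.

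Of the 5 paralog pairs compared, 4 were apart by those intervals in both replicates. H2afz was 3.01-fold above H2afv (log2 ratio 1.59 ± 0.067, SD, n = 2) and 5.57-fold above H2afx (2.48 ± 0.29). H1f0 was 17.5-fold above H1fx, another linker histone gene (4.13 ± 0.49). H3f3b stood at 0.692 times H3f3a (log2 ratio -0.53 ± 0.099). The pair that was not apart was H2afy and H2afy2, at a log2 ratio of 0.021 ± 0.017.

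For the H3.3 genes the order by level is the reverse of the order by reads. H3f3b had 59089 counts in replicate 1 and 59751 in replicate 2, against 41553 and 40734 for H3f3a. The effective length of H3f3b was 1782 bases in replicate 1 and 1746 in replicate 2, against 827 and 865 for H3f3a, so each read of H3f3a weighs more in TPM. H3f3a thus supplied 59.1% ± 1.65 of H3.3 TPM but 41.3% of the H3.3 counts in replicate 1 and 40.5% in replicate 2. H2afz supplied 75.0% ± 0.868 of the TPM of the H2A.Z genes, and 75.8% of their counts in replicate 1 and 75.9% in replicate 2.

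Transcript models differed within 5 of the 8 genes, and H2afx, H2afy2 and H1f0 have 1 model each in the files. Of the 7 H3f3a transcripts, H3f3a-201 took 68.2% ± 3.39 of the gene's TPM, the 481-base model H3f3a-204 took 22.6% ± 3.49 and the 2841-base model H3f3a-205 took 7.72% ± 0.608. By counts the last 2 change places, since H3f3a-204 held 11.6% of the gene's counts in replicate 1 and 8.91% in replicate 2, against 24.2% and 25.8% for H3f3a-205. H3f3b-201 took 88.4% ± 2.26 of H3f3b, and the noncoding model H3f3b-204 took 10.6% ± 2.28.

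H2afz was mostly H2afz-201, at 86.2% ± 2.60, with H2afz-207, a coding model of 810 bases, at 12.3% ± 2.74. H2afv was split between 2 coding models. H2afv-201, of 519 bases and 270 coding bases, took 57.5% ± 2.96 of the TPM, and H2afv-202, of 1633 bases and the 384 coding bases that match H2afz in length, took 42.5% ± 2.96. By counts H2afv-202 held 71.3% in replicate 1 and 74.6% in replicate 2. The level of H2afv therefore depends on how much of it is given to the short model.

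**Figure D2:**
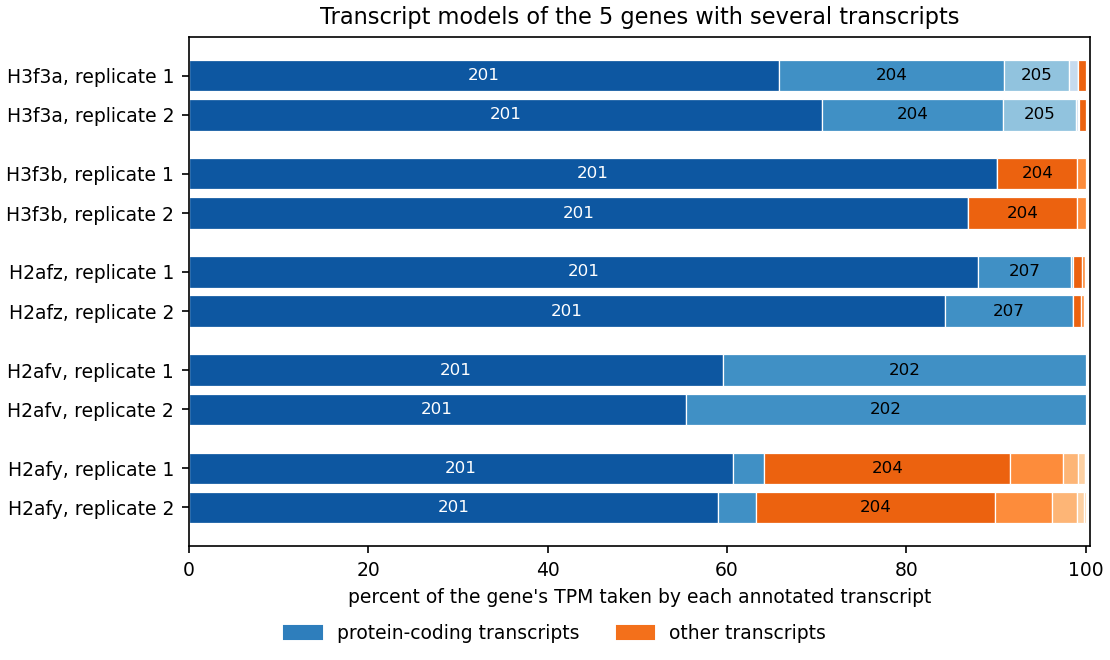
Percent of each gene's TPM by annotated transcript in each replicate, with protein-coding transcripts in blue, other transcripts in orange and the larger ones numbered. H2afy-201 holds 60.7% in replicate 1 and 59.0% in replicate 2, and the noncoding H2afy-204 holds 27.4% and 26.7%.

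In H2afy the macroH2A1.2 form was the main coding form in both pools. H2afy-201, the coding transcript with the longer exon, had 132 TPM in replicate 1 and 118 in replicate 2. H2afy-202, with the shorter exon, had 7.5 TPM in replicate 1 and 8.43 in replicate 2. The macroH2A1.1 exon was thus in 5.39% of coding H2afy TPM in replicate 1 and 6.68% in replicate 2, a mean of 6.04% ± 0.910, and macroH2A1.2 was 15.7-fold higher. By counts, H2afy-201 held 6429 in replicate 1 and 5896 in replicate 2, against 365 and 420 for H2afy-202. Over the coding part these transcripts differ in that exon alone, and their deposited lengths are 2046 and 2037 bases.

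Of the 8 H2afy transcripts 5 hold neither exon, and these took 34.2% of the gene's TPM in replicate 1 and 34.1% in replicate 2. Most of that was H2afy-204, a noncoding model of 889 bases that stops before the alternative exons. With coding transcripts alone, H2afy stood below H2afy2, at a log2 ratio of -0.63 in place of 0.021, with 139 TPM in replicate 1 and 126 in replicate 2 against 212 and 198 for H2afy2. The 5 genes listed as regulators of this exon choice were all detected, as were 63.5% of protein-coding genes. They were the RNA helicase genes Ddx5 at 269 ± 8.56 TPM and Ddx17 at 23.8 ± 0.00707, the muscleblind genes Mbnl1 at 41.4 ± 5.60 and Mbnl2 at 13.2 ± 1.24, and the quaking gene Qk at 35.6 ± 0.46.

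The 8 variant genes were set against replication-dependent genes of the same class, drawn from 61 replication-dependent protein-coding genes. H3f3a and H3f3b summed to 3323 TPM in replicate 1 and 3162 in replicate 2, against 32.1 and 30.3 TPM for 12 replication-dependent H3 genes. These 2 variant genes thus held 99.0% of the summed H3 TPM in replicate 1 and 99.1% in replicate 2. The 5 H2A variants summed to 1327 and 1249 TPM, against 637 and 620 for 17 replication-dependent H2A genes, or 67.2% ± 0.520. Most of the replication-dependent sum was Hist1h2ap, with 497 TPM in replicate 1 and 462 in replicate 2. H1f0 had 155 and 150 TPM, against 18.7 and 22.3 for 5 replication-dependent H1 genes, or 88.1% ± 1.56. The sums leave out 3 other variant genes that were detected. These are Cenpa of H3 at a mean of 33.5 TPM, H2afj of H2A at 55.9 and H1fx of H1 at 8.99.

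The 61 replication-dependent genes had a median of 0.820 TPM, and 28 of them reached 1 TPM in both replicates, where 63.5% of protein-coding genes did. Many of these genes are near-identical, so the value of any 1 of them is uncertain. These shares describe the RNA in the libraries, and whether messages with a poly(A) tail and with a stem-loop were captured alike was not tested.

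**Figure D3:**
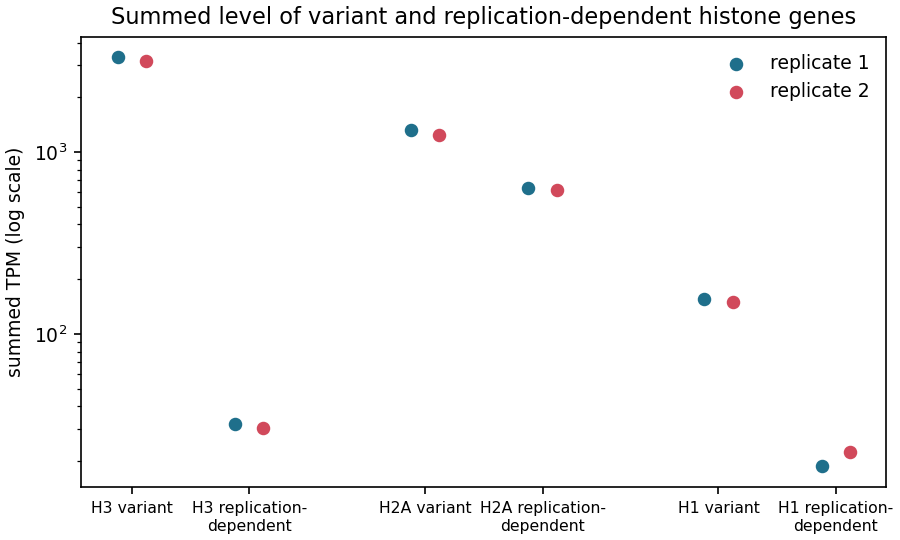
Summed TPM on a log axis of variant genes and of replication-dependent genes in the H3, H2A and H1 classes, with 1 point for each replicate. The gap is widest for H3, at 3323 against 32.1 TPM in replicate 1, and narrowest for H2A, at 1327 against 637.

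H2afx has features of both kinds of histone gene. H2afx (chromosome 9, 44334694 to 44336077, plus strand) and H1f0 (chromosome 15, 79028450 to 79030504, plus strand) have 1 exon, while the main transcripts of the other 6 are spliced. The transcript of H2afx holds a match to the consensus of the histone stem-loop, shown here in capitals with 5 bases on each side, 46 bases after its stop codon at chr9:44335240-44335255.
H2afx stem-loop: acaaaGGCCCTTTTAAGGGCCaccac
Searched on the transcript strand, the consensus was found in 1 of the 8 variant genes, in 43 of the 61 replication-dependent ones (70.5%) and in 51 of all 21539 protein-coding genes searched (0.237%). A poly(A) signal, AATAAA or ATTAAA, lay in the last 40 bases of a coding transcript in 6 of the 8 variant genes, H2afx among them, in 16 of the 61 (26.2%) and in 73.6% of all. The variant genes without one were H2afy and H3f3b. A match describes the annotated sequence and does not show how the message ended in this tissue.

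Copies elsewhere in the genome bear on the H2A.Z and H3.3 values. Gm8203, a processed pseudogene on chromosome 6 (116173737 to 116174123), is identical to the 387-base coding sequence of H2afz, so reads inside it cannot be assigned with certainty. It was given 200 TPM in replicate 1 and 229 in replicate 2, as high as H2afy, from 1449 and 1693 counts. The processed pseudogenes of H2afz held 9.61% of the joint counts in replicate 1 and 11.0% in replicate 2. The within-library SD of the H2afz count was 87.7 reads in replicate 1 and 81.1 in replicate 2, against 0 in both for H2afy, H2afv and H1f0.

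H3f3c, annotated as a processed pseudogene on chromosome 2 (119665626 to 119666036), differs from the H3f3a coding sequence at 4 of 411 bases. It was given 301 TPM in replicate 1 and 374 in replicate 2. In all, 26 processed pseudogenes shared runs of 31 bases with H3f3a, and together they held 5.64% of the joint counts in replicate 1 and 7.84% in replicate 2. For H3f3b there were 2, with 0.0812% and 0.537%. Adding these counts put H3f3a at 2054 TPM and H2afz at 644 TPM on average. H2afx shares up to 120 runs of 31 bases with replication-dependent H2A genes, and the SD of its count from read assignment was 8.98 reads in replicate 1 and 7.94 in replicate 2. Adding the counts of all transcripts that share a run, most of them replication-dependent genes, would put H2afx at 473.8 TPM in place of 104.8. H1f0 and H2afy shared no such run with any transcript outside the gene.

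The pools were close for 7 of the 8 genes and apart for H2afx. Log2 ratios of replicate 1 over replicate 2, from counts scaled with TMM (which sets most genes as unchanged), ran from -0.031 to 0.083 for those 7. For H2afx the ratio was 0.37, from 3870 counts in replicate 1 and 2960 in replicate 2, or 1.29-fold, with a 95% counting interval of 0.30 to 0.44. None of the 8 was over 2-fold apart, as 1.51% of the 13843 protein-coding genes with a mean of 1 TPM were. Of 1757 protein-coding genes averaging at least 100 TPM, 2.62% had a larger ratio in either direction than H2afx, against 60.6% for H2afy, the next.

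The median ratio of the 8 was 0.008, against 0.015 over the 13843 genes, and the median of its size was 0.028 against 0.13. Over the 1757 genes of at least 100 TPM the median ratio was -0.075 and the median size 0.106. Deposited intervals did not overlap between the libraries for H2afx, H2afy, H2afy2 and H3f3a, each higher in replicate 1. That is 4 of 8, where 31.4% of the 13843 genes were apart in either direction and 22.3% in that direction. Among genes of 100 TPM or more the share was 52.1%, so 4 of 8 is near the background of equally abundant genes. For H3f3a the ratio was 0.014 by counts and 0.13 by TPM, and its effective length was 827 bases in replicate 1 and 865 in replicate 2.

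Spike-ins made up 2.18% of the counts of replicate 1 and 1.59% of those of replicate 2, and scaling to their totals moved the ratio of each of the 8 by -0.45 and put all 8 lower in replicate 1, from -0.48 for H3f3b to -0.078 for H2afx. H2afx still stood highest of the 8. Directions here are therefore relative to the other genes.

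**Figure D4:**
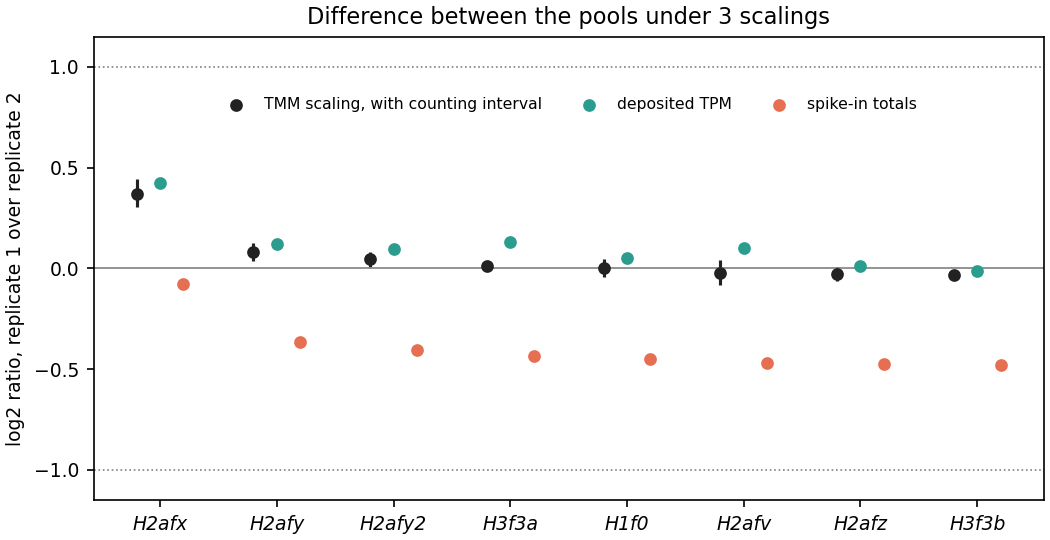
Log2 ratio of replicate 1 over replicate 2 for each gene under TMM scaling (black, with 95% counting intervals), deposited TPM (green) and spike-in totals (orange), with dotted lines at a 2-fold difference. H2afx lies above the other 7 under each scaling, at 0.37, 0.42 and -0.078, and spike-in scaling shifts all 8 down by the same amount.

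Other genes also differed between the pools. All 4 cell cycle markers were detected, summing to 212 TPM in replicate 1 against 195 in replicate 2. By TPM all 4 were higher in replicate 1, the widest apart being Top2a at 37.5 and 27.5 TPM. By TMM-scaled counts 3 of the 4 were, with a median log2 ratio of 0.113 over the 4. Asf1b, the widest apart of the H3.3 chaperone genes, had 12.3 and 8.24 TPM, and H1fx had 11.2 and 6.73. Over the 29 replication-dependent histone genes averaging at least 1 TPM the median log2 ratio was -0.09, with 13 higher in replicate 1 and 16 in replicate 2. Many of these genes are near-identical, so their single ratios are uncertain. The 4 red blood cell markers were all higher in replicate 1, summing to 4923 TPM against 3991. The 4 markers of skeletal muscle summed to 104 TPM in replicate 1 against 1.77 in replicate 2. The part of these differences in the H2afx value was not tested. All 4 Hox markers and all 4 cerebellar markers reached 1 TPM in both replicates, as did 63.5% of protein-coding genes. By TMM-scaled counts their median log2 ratios were -0.207 and -0.23, with 3 of the 4 higher in replicate 2 and 1 in replicate 1 in each list. All 4 neuronal markers also reached 1 TPM in both, summing to 2905 TPM in replicate 1 and 3111 in replicate 2. So did all 4 progenitor markers, at 2253 and 2734 TPM, sums that were mostly Fabp7 at 1840 and 2400 TPM. By TMM-scaled counts Fabp7 was higher in replicate 2 and the other 3 progenitor markers in replicate 1, with a median log2 ratio of 0.14 over the 4. Of the 4 neuronal markers 3 were higher in replicate 2 and 1 in replicate 1, with a median of -0.08.

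The 5 lists of genes that load, remove or read the variants, or regulate the H2afy exon choice, were detected throughout. Of these genes 42 of 42 reached 1 TPM in both replicates, as did 63.5% of protein-coding genes. The 8 H3.3 chaperone genes had a median of 14.3 TPM and were led by Atrx, a chromatin remodeler, at 190 ± 13.0 TPM and Daxx, its partner, at 44.4 ± 0.976. The HIRA complex genes were lower, with Cabin1 at 15.8 ± 2.36, Ubn2 at 12.8 ± 0.926, Hira itself at 7.76 ± 1.21 and Ubn1 at 6.31 ± 0.799 TPM. The HIRA values and the ATRX and DAXX values did not overlap between replicates.

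The 11 genes of H2A.Z loading and removal had a median of 66.7 TPM. Vps72, which binds H2A.Z in its loading complexes, had 126 ± 9.72 TPM, Znhit1 had 126 ± 7.11 and Anp32e, the chaperone that removes H2A.Z, had 95.9 ± 5.66. The catalytic subunit genes Srcap and Ep400 had 47.0 ± 1.45 and 37.8 ± 8.19 TPM, and Ino80 was the lowest at 2.59 ± 0.354. General chaperones had a median of 89.4 TPM over 8 genes, with Npm1 at 295 ± 0.339, Nap1l4 at 252 ± 4.38 and the FACT subunit gene Ssrp1 at 134 ± 6.10. The CAF-1 subunit genes Chaf1b and Chaf1a, which act in replication, were the lowest, at 16.0 ± 1.12 and 5.56 ± 1.05 TPM.

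The 10 genes that phosphorylate H2A.X or act on the mark had a median of 8.29 TPM. Trp53bp1, a reader at breaks, stood at 115 ± 7.86 TPM and the ubiquitin ligase gene Rnf8 at 51.8 ± 1.88. The kinase genes were lower, with Atr at 7.65 ± 0.113, Atm at 5.0 ± 0.297 and Prkdc at 3.41 ± 0.679 TPM. No gene of these 5 lists was over 2-fold apart between pools, as 1.51% of the 13843 protein-coding genes with a mean of 1 TPM were.

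Of 11 other variant histone genes only 3 were detected, where 63.5% of protein-coding genes were. H2afj, an H2A variant gene, had 55.9 ± 0.403 TPM, Cenpa, the centromeric H3 variant gene, had 33.5 ± 3.17, and H1fx had 8.99 ± 3.20. The remaining 8 are known mostly from germ cells, 5 of them were listed at 0 in both replicates, and the highest, H2afb3, had 2 counts in replicate 1 and 0 in replicate 2.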

How the data were processed

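Per the labels' protocols, the Ambion mirVana method was used for extraction, a manual of the SMARTer Ultra Low kit is linked, each library started from 10 ng of RNA and spike-ins were used. The authors quantified each replicate separately on mm10 with GENCODE M4, per the submitters' processing notes. The sources used here do not name the quantifier, the strand setting or the level of the deposited intervals, so antisense partners cannot be told apart. Per the file headers, the deposited values are an expected count, TPM, FPKM and, for transcripts, a percent of gene TPM. Deposited interval bounds and the within-library SD of a count were treated as scores.

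Gene names and coordinates are those of GENCODE M21 (GRCm38, equal to mm10). Ensembl IDs without a match held 0.177% (replicate 1) and 0.174% (replicate 2) of counts, and IDs that name no gene 4e-05% and 4.99e-05%. For ratios, expected counts were rounded, spike-ins were left out, and TMM factors came from edgeR 4.0.16 under R 4.3.3, with a prior count of 0.5. DESeq2 1.42.0 size factors, spike-in totals, TPM, coding transcripts alone and added copies were alternatives. On simulated counts of 43346 genes for these 2 libraries, 200 well-counted genes were changed, and 100% of those changed 4-fold passed the 2-fold limit. The counts were drawn with counting error alone, so this checks the calculation and not the spread between pools. Copies are transcripts sharing a run of 31 bases. Python 3.11.15, pandas 2.3.3 and SciPy 1.17.1 were used. Counting intervals cover counting error only. SDs are over 2 pools that the labels call biological replicates.

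The genes and lists were chosen with earlier results of these data known. Named genes are the 8 genes, their pair partners, up to 6 highest and the 2 lowest of each list, the genes next in level to the top 2, and the main copies. Srcap and Top2a lie outside that rule and were chosen after their values were seen. Protein sequences are not used here, and 1 marker list is not reported here.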

Additional observations from a re-analysis of the deposited data

How the results depend on the processing

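All 8 genes stayed detected at 5 or 0.5 TPM, in FPKM and without either replicate, and 4 of 5 pairs were called without either replicate. With 2 replicates, leaving out 1 returns the other's value, which is no check of a level. The genes detected over the 7 lists numbered 73, against 74 without replicate 1 and 76 without replicate 2. The median ratio of replicate 1 over replicate 2, 0.008, was 0.023 with DESeq2 size factors, 0.1 with TPM and reversed to -0.442 with spike-in totals. Its background of 13843 protein-coding genes had a median of 0.015, and 0.003 over all 15910 named genes. The variant share of H3 TPM was 99.0% with coding transcripts alone and 99.09% with pseudogene counts added, against 99.05%. That of H2A was 65.7% and 68.3%, against 67.19%. The pseudogene setting and all settings for these shares were chosen after seeing the data. Coding transcripts alone put H2afy at 132.6 TPM against 208.2 and H3f3b at 1173 against 1326. Adding the counts of every transcript that shares 31 bases, real genes included, put H2afx at 473.8 TPM against 104.8 and H2afz over H2afx at a log2 ratio of 0.444 in place of 2.479. The counts added to H2afx were 11975 in replicate 1 and 12124 in replicate 2, against 3870 and 2960 of its own. The H2afy exon share kept within the spread between replicates with all transcripts, expected counts and posterior percentages. No paired analysis was possible because there is 1 group.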

Other observations

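Some processed pseudogenes of the H3.3 genes were uneven between the pools where their parents were not. H3f3a-ps2 (chromosome 16) had 82.1 counts in replicate 1 and 419 in replicate 2, a log2 ratio of -2.36, against 0.014 for H3f3a. Gm6485 and Gm37486, which share 189 and 178 runs of 31 bases with H3f3b, had 34.4 and 13.6 counts in replicate 1 and 244 and 78.1 in replicate 2. H3f3c and Gm8203 were closer, at -0.36 and -0.24. With these copies added, the log2 ratio of H3f3a became -0.02 and that of H2afz -0.048, so neither parent was moved by over 0.04.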
